A study of Homo sapiens with 4 samples.

Results

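The protein-coding genes whose symbol begins with MRPL or MRPS and a digit are named for the proteins of the human mitochondrial ribosome, and all but MRPS36 encode such proteins. They were taken by that rule from a table of 27106 genes, and 74 were found, 47 named MRPL for the large subunit and 27 named MRPS for the small subunit. MRPL23, MRPL53, MRPS12 and MRPS18B carry such names in the annotation but were not analysed here. The RNA came from THP-1, an established human monocytic leukaemia line, and was sequenced as total RNA. The cells carried either an antisense oligonucleotide (ASO) against the long noncoding RNA SGOL1-AS1, whose libraries are labelled as a knockdown (KD, n = 2), or a non-targeting ASO (NT, n = 2). All 4 libraries are labelled day 5, both groups received an ASO, and no untransfected cells were analysed here. The labels do not say whether the libraries of a group came from separate cultures, so p-values cover the spread between libraries alone, and that spread may be technical. The columns taken as KD bear a code with no key in the labels and were assigned by elimination, because only 1 other group is labelled.

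Mitochondrial ribosomes translate the few messenger RNAs that mitochondria make from their own DNA, all of which encode membrane subunits of the respiratory chain and ATP synthase. Their ribosomal RNAs come from mitochondrial DNA, whereas every ribosomal protein is encoded in the nucleus, made in the cytosol and imported. Some of these proteins descend from proteins of the bacterial ribosome, and others are specific to mitochondria. Acute myeloid leukaemia cells are known to be sensitive to inhibitors of this translation.

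The libraries held 48558537 and 41435922 gene reads in KD and 50855150 and 51851314 in NT. The deposited values are reads divided by 1 size factor per library and are called normalized reads here. The targeted RNA, listed as SGO1-AS1, had 12 and 17 reads in KD, against 24 and 21 in NT. Its normalized reads were 15.4 ± 5.57 in KD and 21.4 ± 2.33 in NT (SD, n = 2 each). Its log2 fold change was -0.48 (95% interval -1.26 to 0.29, limma adjusted p = 0.555), so at this depth a fall was not established. All 11 monocytic marker genes were in the table, with summed normalized reads of 70116 and 69648 in KD, against 72355 and 69912 in NT, and 3 of them (CD4, FCGR1A and TYROBP) were called lower and 0 higher, against 3.4% lower among all tested genes. More than any other gene, LYZ set these sums, with 39733 and 40116 in KD and 37332 and 36975 in NT, and CD14 and CD68 were low, with means of 104 and 17.8 over the 4 libraries. Markers of other lineages were low or outside the table: 3 of 6 lymphocyte genes summed to 126 and 119 in KD and 120 and 113 in NT. Of the other marker lists, 1 of 5 erythroid and megakaryocyte genes (ITGA2B, mean 35.2) and 1 of 5 epithelial and fibroblast genes (COL1A1, mean 181) were in the table. The mean of COL1A1 lay above those of CD14 and CD68, so these low markers do not separate the lineages. In bulk RNA, fewer cells of a type and less RNA per cell cannot be told apart.

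The mitochondrial ribosomal protein genes differed little between KD and NT. Of the 73 genes with a mean of at least 10 normalized reads, 3 were lower in KD and 0 were higher (limma with Benjamini-Hochberg adjustment over all 19398 tested genes, threshold 0.05), or 4.11%. Over all tested genes the share called was 4.25%, with 3.4% lower and 0.851% higher, so the share among the ribosomal genes was near the background. By limma 9 of the 73 had an unadjusted p under 0.05 (7 lower, 2 higher), against 17.2% of all tested genes. The median log2 fold change (KD minus NT) was -0.01 for the 73 genes and -0.01 for all tested genes. Among the 13283 tested protein-coding genes 632 were lower and 89 higher (5.43%), with a median of -0.03. In 24 of the 73 genes (32.9%) both KD values lay outside both NT values, 17 below and 7 above. This compares with 46.7% of all tested genes and 48.9% of tested protein-coding genes.

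The measurement was tight enough to bound most of these genes. The 95% interval of the fold change lay within 1.25-fold in either direction for 62 of the 73, and within 1.5-fold for 72. The median absolute difference between the 2 replicates was 0.07 log2 units in KD and 0.07 in NT over these genes, and the median absolute difference between group means was 0.05. Over all tested genes the same quantities were 0.12 in KD, 0.10 in NT and 0.11 between groups. A difference between means of 2 libraries spreads less than one between single libraries, so the 2 kinds are not directly comparable. The 73 genes also had a higher median level, 1789 normalized reads against 388 over all tested genes. The plot of fold changes shows each gene with its interval.

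**Figure D1:**
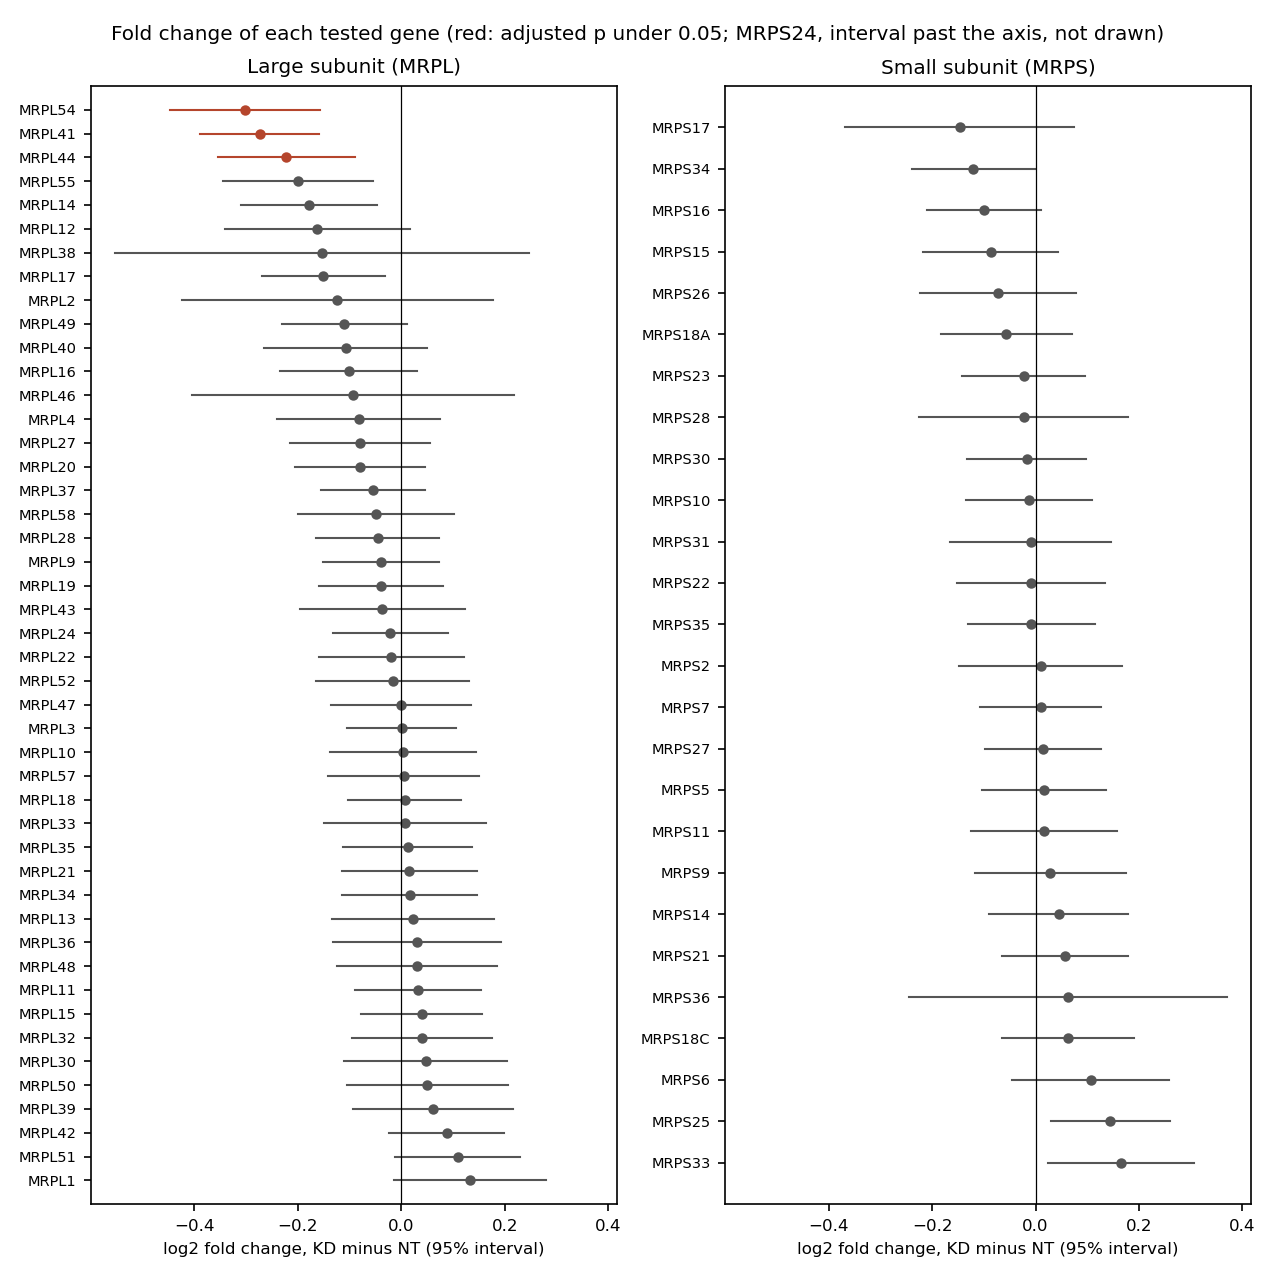
Log2 fold change (KD minus NT, x axis) of each tested gene with its 95% interval from limma, large subunit genes on the left and small subunit genes on the right, lowest at the top. Only MRPL54, MRPL41 and MRPL44, in red, had an adjusted p under 0.05; MRPS24, with an interval from -0.55 to 1.06, is not drawn.

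All 3 lower genes encode large subunit proteins with no counterpart in bacterial ribosomes. MRPL54 encodes one such protein. It had 1155 and 1070 normalized reads in KD, against 1381 and 1360 in NT. Both KD libraries lay below both NT libraries, and the gap between the groups was wider than the gap within either. Its log2 fold change was -0.30 (SE 0.07, limma adjusted p = 0.0128). MRPL54 lies on the forward strand at chr19:3762664-3768575 (GRCh38) and shares no exonic bases with another annotated gene.

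MRPL41, whose protein has also been reported to bind the survival factor BCL2, had 3367 and 3395 normalized reads in KD and 3980 and 4201 in NT. The KD libraries nearly coincided and both were below NT. Its log2 fold change was -0.27 (SE 0.06, limma adjusted p = 0.00441), the smallest adjusted p of the set. It lies on the forward strand at chr9:137551199-137552555 and had the highest transcript GC content among the 3 genes, 71.9%, against 62.8% for MRPL54 and 44.9% for MRPL44. When the libraries were corrected for GC content and exonic length, MRPL41 was no longer called (log2 fold change -0.11, limma adjusted p = 0.530; over all alternatives adjusted p ran from 0.00078 to 0.530).

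MRPL44 encodes a protein with a ribonuclease III-like fold that sits near the exit of the peptide tunnel, and inherited variants of it cause a cardiomyopathy. It had 2495 and 2858 normalized reads in KD, against 3060 and 3174 in NT. The groups did not overlap, but the KD libraries differed more from each other than the higher KD library did from the lower NT library. Its log2 fold change was -0.22 (SE 0.06) at a limma adjusted p of 0.0499, just inside the threshold. It kept its call in 4 of 16 alternatives: without KD library 1 the log2 fold change was -0.12 (adjusted p = 0.344), without KD library 2 it was -0.32 (adjusted p = 0.000156), and over all 16 adjusted p ran from 0.000156 to 0.473. It lies on the forward strand at chr2:223957404-223967714, and 225 of its exonic bases overlap another annotated gene.

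Leaving out an NT library also bore on the first 2 of these genes. MRPL54 kept its call in 10 of 16 alternatives. It lost the call without NT library 1 (log2 fold change -0.29) or without NT library 2 (-0.31). The call was also lost in limma with quantile normalization (adjusted p = 0.0511), the same total in every library (0.0735) and no variance trend (0.345). By DESeq2 it was just missed (adjusted p = 0.05004). MRPL41 kept its call in 13 of 16 alternatives. It lost the call without NT library 2 (-0.24), with no variance trend (limma adjusted p = 0.346) and with the GC and length correction given above. Neither gene changed direction in any alternative.

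**Figure D2:**
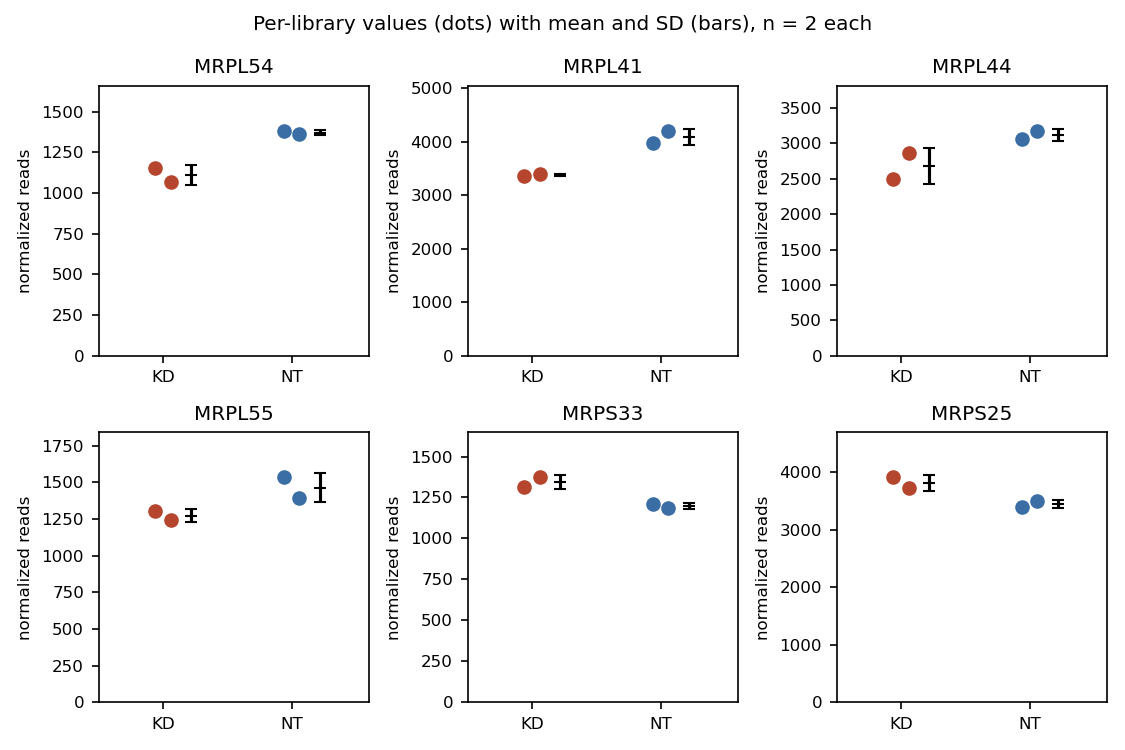
Normalized reads (y axis, from 0) of 6 genes in each KD library (red, left) and each NT library (blue, right), with the group mean and SD as black bars (n = 2 each). MRPL54, MRPL41, MRPL44 and MRPL55 lie lower in both KD libraries and MRPS33 and MRPS25 higher, and only the first 3 passed the test over all genes.

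The sequences ahead of 2 of the 3 lower genes are shown because their base composition differs widely. They come from RefSeq (GRCh38.p14), run 5′ to 3′ on the strand of the gene and end at the base before the first annotated exon. Capitals mark CCGCCC or GGGCGG, the core letters that SP1-family factors bind. That motif was chosen after the sequences were seen. MRPL54 is at chr19:3762432-3762663 and MRPL44 at chr2:223957213-223957403.
MRPL54: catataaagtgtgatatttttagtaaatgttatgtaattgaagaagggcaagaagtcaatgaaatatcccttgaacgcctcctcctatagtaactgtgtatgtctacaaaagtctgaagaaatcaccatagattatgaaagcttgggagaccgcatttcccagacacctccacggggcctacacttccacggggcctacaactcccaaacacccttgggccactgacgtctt
MRPL44: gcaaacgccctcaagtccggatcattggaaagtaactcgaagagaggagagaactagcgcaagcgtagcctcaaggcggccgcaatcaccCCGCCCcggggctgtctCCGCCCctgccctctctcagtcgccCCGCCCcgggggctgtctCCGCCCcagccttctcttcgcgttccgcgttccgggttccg
In the 250 bases before the RefSeq start, MRPL54 held 0 such matches at a GC content of 44.8%, MRPL44 held 4 at 63.6% and MRPL41 held 8 at 82.8%. In a longer window, from 250 bases before to 50 after the start, such letters were in 60.6% of 66 ribosomal gene promoters, in 44.6% of all RefSeq promoters and in 68.5% of those of tested protein-coding genes. The window of MRPL41 lies inside the gene as GENCODE annotates it and is not printed.

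Among the other large subunit genes, the next largest fall was that of MRPL55, with 1302 and 1243 normalized reads in KD, against 1533 and 1393 in NT. The groups did not overlap, and the log2 fold change of -0.20 (95% interval -0.34 to -0.05) did not pass (limma adjusted p = 0.120). MRPL14 (-0.18) and MRPL17 (-0.15), named after their values were seen, were also below NT in both KD libraries and had an unadjusted p under 0.05. With the correction for GC content and length MRPL14 passed (log2 fold change -0.21, limma adjusted p = 0.0414), and in none of the other alternatives. Of the 46 tested large subunit genes, 13 lay below NT in both KD libraries and 3 above, where over all tested genes 25.1% lay below and 21.6% above. The 13 of 46 are near that background, and the 3 of 46 are under it.

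The stalk of the large subunit, which recruits translation factors, is built from the proteins of MRPL10, MRPL11 and MRPL12. MRPL12, whose protein also binds the mitochondrial RNA polymerase, had 891 and 755 normalized reads in KD and 968 and 871 in NT. The groups overlapped, and the log2 fold change was -0.16 (95% interval -0.34 to 0.02, limma adjusted p = 0.347). Without KD library 1, the higher of the KD pair, MRPL12 passed (log2 fold change -0.28, adjusted p = 0.0443, within a range of 0.0443 to 0.882), and MRPL4, named after its values were seen, passed likewise (-0.23, adjusted p = 0.0233). Neither passed in any other alternative. MRPL10 had 1285 and 1351 in KD and 1343 and 1288 in NT, a log2 fold change of 0.00 (95% interval -0.14 to 0.14). MRPL11 had 2926 and 2930 in KD and 2763 and 2968 in NT, a log2 fold change of 0.03 (95% interval -0.09 to 0.15).

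Tunnel exit proteins are encoded by MRPL24, MRPL44 and MRPL45. MRPL24, a homologue of a bacterial tunnel exit protein, had 3884 and 3846 normalized reads in KD and 3901 and 3946 in NT. All of these values lay close together, with a log2 fold change of -0.02 (95% interval -0.13 to 0.09). The values of MRPL44 are given above, and its difference from MRPL24 was not tested. MRPL45 encodes the protein that ties the mitochondrial ribosome to the inner membrane. It had 2 and 2 reads in KD and 1 and 0 in NT, under the minimum for testing, and no fold is given. The annotation names 2 pseudogenes of MRPL45, and how reads shared with them were counted is not given in the sources used here. MRPL58, a peptidyl-tRNA hydrolase that releases stalled ribosomes, had 1137 and 1158 normalized reads in KD and 1250 and 1128 in NT, with a log2 fold change of -0.05 (95% interval -0.20 to 0.10).

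The largest positive values among the large subunit genes also missed the threshold. MRPL1, a homologue of the bacterial L1 protein, had 1701 and 1935 normalized reads in KD and 1585 and 1728 in NT, and the groups overlapped (log2 fold change 0.13, limma adjusted p = 0.353). MRPL51 had 2782 and 2676 in KD and 2487 and 2574 in NT (log2 fold change 0.11, adjusted p = 0.355), and MRPL42 had 4066 and 4000 in KD and 3755 and 3838 in NT (0.09, adjusted p = 0.434). Both were higher in both KD libraries. MRPL39 overlapped between the groups, with a log2 fold change of 0.06 (95% interval -0.09 to 0.22).

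None of the 27 small subunit genes was called in either direction. By limma 3 of them had an unadjusted p under 0.05, against 17.2% of all tested genes. Both edgeR and DESeq2 called 0 of them. Of all 19398 tested genes edgeR called 3.69%, and DESeq2 called 3.42% of the 13004 genes to which it gave an adjusted p. Among them 4 lay above NT in both KD libraries without testing as higher, MRPS33, MRPS25, MRPS6 and MRPS14, the last named after its values were seen. These 4 of 27 compare with 21.6% of all tested genes. MRPS33, specific to mitochondria, had 1313 and 1372 normalized reads in KD and 1209 and 1184 in NT (log2 fold change 0.17, 95% interval 0.02 to 0.31, limma adjusted p = 0.202). MRPS25, also specific to mitochondria, had 3912 and 3724 in KD and 3406 and 3500 in NT (0.14, 95% interval 0.03 to 0.26, adjusted p = 0.163). Both were separated by more than the gap within either group, and MRPS25 passed after the correction for GC content and length (log2 fold change 0.17, adjusted p = 0.0450). Over its 16 alternatives that was the only pass of MRPS25, with adjusted p between 0.0450 and 0.653. MRPS6, a homologue of bacterial S6, had 982 and 1009 in KD and 910 and 939 in NT (0.11, adjusted p = 0.496).

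On the other side, MRPS17, MRPS34, MRPS16 and MRPS15 lay below NT in both KD libraries, 4 of 27 against 25.1% of all tested genes. MRPS34 had 4398 and 3989 normalized reads in KD and 4641 and 4465 in NT (log2 fold change -0.12, 95% interval -0.24 to -0.00, limma adjusted p = 0.286). MRPS16 had 4035 and 4052 in KD and 4293 and 4370 in NT (-0.10, adjusted p = 0.355). MRPS15 (-0.09) and MRPS17 (-0.15) had 95% intervals that included 0, -0.22 to 0.04 for MRPS15 and -0.37 to 0.07 for MRPS17. MRPS17, MRPS16 and MRPS15 are homologues of bacterial small subunit proteins, whereas MRPS34 is specific to mitochondria.

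Several MRPS genes have histories apart from the small subunit. MRPS30, also known as a programmed cell death gene, encodes a protein that sits in the large subunit. It had 3966 and 4004 normalized reads in KD and 3907 and 4163 in NT, a log2 fold change of -0.02 (95% interval -0.13 to 0.10). MRPS18A and MRPS18C are paralogs of bacterial S18, of which the first belongs to the large subunit. MRPS18A had a log2 fold change of -0.06 (95% interval -0.18 to 0.07) and MRPS18C one of 0.06 (95% interval -0.06 to 0.19). MRPS36, now known as a subunit of the alpha-ketoglutarate dehydrogenase complex, had 152 and 184 in KD and 175 and 147 in NT, with overlapping groups and a log2 fold change of 0.06 (95% interval -0.24 to 0.37).

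Large and small subunit genes had close medians. The median log2 fold change was -0.02 over 46 large subunit genes and 0.01 over 27 small subunit genes, a difference of -0.03. Relative to the NT mean, the median of the large subunit genes was -0.0260 and -0.0205 in the KD libraries and -0.0188 and 0.0188 in the NT libraries. Both KD values lay below both NT values, by less than the gap between the NT libraries. The median of the small subunit genes was -0.0243 and 0.0236 in KD and -0.00907 and 0.00907 in NT, and here the groups overlapped. With 2 libraries a group an exact permutation test cannot go below p = 0.333. The difference lost most of its size without KD library 2 (-0.00) or NT library 1 (-0.00), and it was 0.00 when genes that overlap another gene were left out.

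Summed normalized reads gave a similar picture with a slightly lower ratio in KD. The sum over large subunit genes divided by that over small subunit genes was 1.91 and 1.92 in KD and 1.94 and 1.98 in NT (1.91 ± 0.00594 in KD and 1.96 ± 0.0289 in NT, SD, n = 2 each). The groups did not overlap, and the nearest libraries of the 2 groups lay closer to each other than the NT libraries did. When MRPS18A and MRPS30 were moved to the large subunit and MRPS36 was left out, the ratio was 2.26 and 2.28 in KD and 2.31 and 2.36 in NT. Over all mitochondrial ribosomal protein genes the summed normalized reads were 170257 and 173205 in KD and 173734 and 175964 in NT, lower in both KD libraries. The normalized reads of all genes together were also lower in both KD libraries, at 4.66e+07 and 4.73e+07 in KD and 4.88e+07 and 4.88e+07 in NT. As a share of all reads the ribosomal genes therefore ran the other way, at 0.366% and 0.367% in KD and 0.356% and 0.361% in NT.

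By origin, 45 tested genes have a homologue in bacterial ribosomes and 27 are specific to mitochondria. Of the first, 0 were called by limma (3 at an unadjusted p under 0.05), with a median log2 fold change of 0.00. Of the second, 3 were lower and 0 higher, or 11.1% (6 at an unadjusted p under 0.05), with a median of -0.02. Over all tested genes the share called was 4.25%, with 3.4% lower, and 17.2% had an unadjusted p under 0.05. Within the large subunit the medians were -0.01 for 30 homologues of bacterial proteins and -0.04 for 18 mitochondria-specific genes. No test of the difference between the classes was run.

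**Figure D3:**
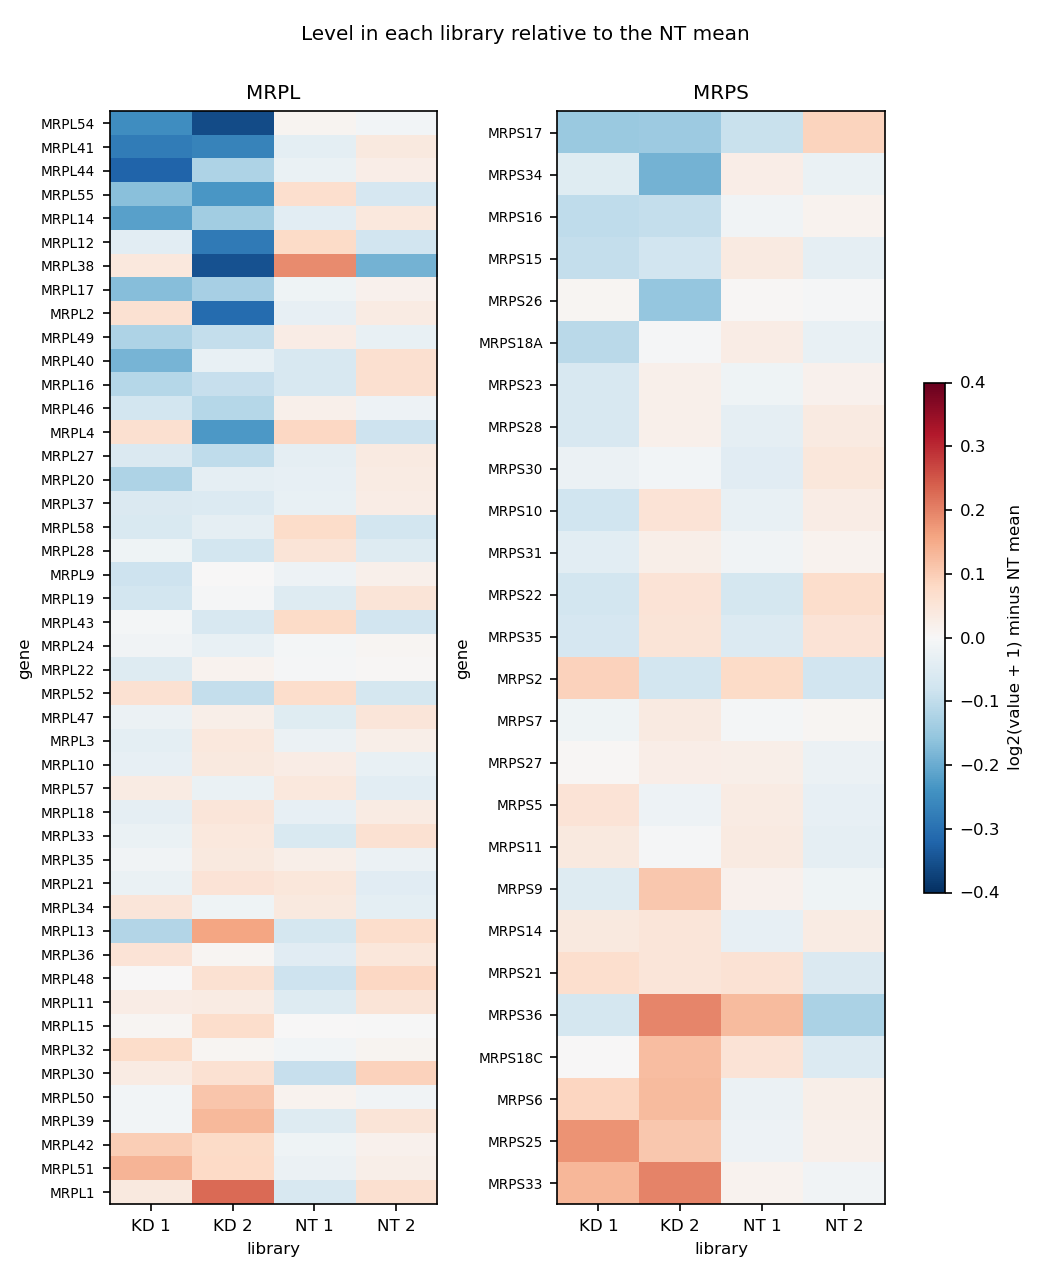
Log2(value + 1) of each tested gene (y axis, MRPL left and MRPS right, ordered by fold change) in each library (x axis, KD libraries then NT libraries), minus the NT mean of that gene; blue is lower and red higher, and MRPS24 is not drawn. MRPL54 and MRPL41 are blue in both KD columns, MRPL44 is darker in KD library 1, and most other genes stay near white in all 4 columns.

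Levels differed far more between genes than between groups. Per kilobase of annotated exons, the tested large subunit genes spanned 285-fold and the tested small subunit genes 541-fold. The low end of the second span is MRPS24 alone, with a mean of 7.37 normalized reads per kilobase, where the next lowest, MRPS36, had 107. The length used is that of all annotated exons of a gene merged, whether or not they are used in these cells. MRPL37, a mitochondria-specific gene, was the highest, with 5815 normalized reads per kilobase in KD and 6043 in NT, followed by MRPL18 with 5233 in KD and 5210 in NT and MRPL3 with 3475 in KD and 3473 in NT. None of the 3 was called, and the log2 fold changes were -0.06 for MRPL37, 0.01 for MRPL18 and 0.00 for MRPL3. In the small subunit MRPS34 led with 3823 per kilobase in KD and 4151 in NT. Behind it lay MRPS21 with 1896 in KD and 1824 in NT, MRPS18A with 1845 in KD and 1918 in NT, and MRPS35, named after its values were seen, with 1842 in KD and 1852 in NT. These last 3 lay close together, and their order differed between KD and NT.

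The lowest genes were those where counting is least certain. MRPS24 had 24.0 and 17.1 normalized reads in KD and 11.5 and 24.5 in NT, and its annotated exons overlap the read-through gene URGCP-MRPS24 by 606 bases. The groups overlapped, and its log2 fold change of 0.25 (95% interval -0.55 to 1.06) was the highest of the set and had the widest interval. MRPL38 had 101 and 76.4 in KD and 111 and 85.6 in NT, and MRPL46 had 131 and 128 in KD and 140 and 136 in NT. Of the 8 genes with a mean under 500, 6 overlap exons of another gene, as do 38 of all 74. The strand setting of the counting is not given in the sources used here, so reads of overlapping genes may be shared or dropped. In addition, 32 of the 74 have named pseudogenes. In all, 71 genes had at least 100 reads in every library.

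Fold change followed transcript GC content across the genes. Over the 73 genes Pearson's r was -0.53 and Spearman's rho -0.53, given as a description because genes of 1 library set share its depth and base composition. Over 18925 tested genes with annotation r was -0.21. The 36 genes of lower GC content had a median log2 fold change of 0.01 and the 37 of higher GC content one of -0.05. The relation was seen mainly with KD library 2, the shallowest. The difference of that library from NT library 1 had an r of -0.65 and from NT library 2 of -0.56, whereas KD library 1 gave -0.18 and 0.02. Between the 2 KD replicates, library 1 minus library 2, r was 0.57, close in size to that between groups. With the correction for GC content and exonic length, r over the 73 genes was -0.07 and their median log2 fold change -0.02. Without KD library 2, MRPL54 (log2 fold change -0.25, limma adjusted p = 0.0451) and MRPL41 (-0.28, adjusted p = 0.00078) kept their calls. With the correction MRPL54 (log2 fold change -0.26, limma adjusted p = 0.0152) and MRPL44 (-0.27, adjusted p = 0.00393) stayed called, MRPL41 did not, and MRPL14 was called, so the lower genes again numbered 3 but were not the same 3.

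**Figure D4:**
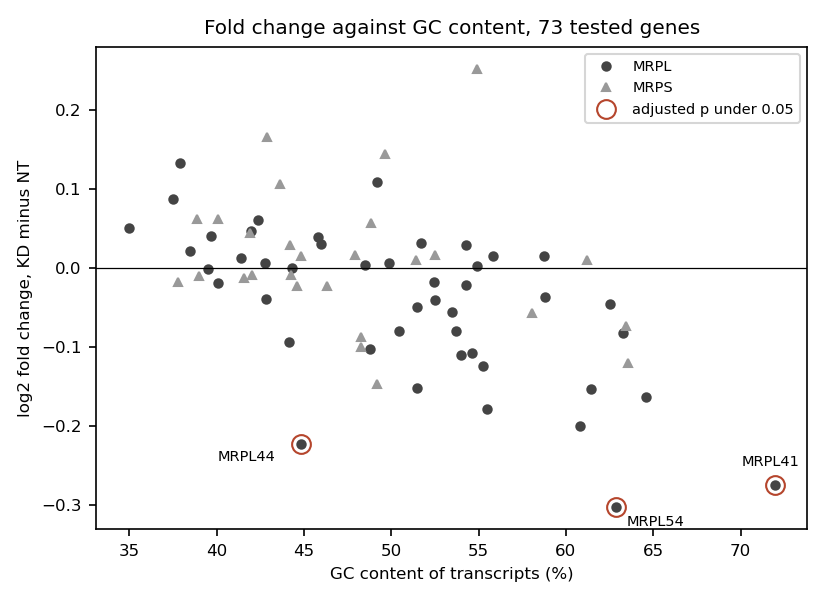
Log2 fold change (KD minus NT, y axis) against the GC content of annotated transcripts (percent, x axis) for the 73 tested genes, MRPL as circles and MRPS as triangles, with the 3 called genes ringed. Values fall as GC content rises (Pearson's r = -0.53), MRPL41 lies at the GC-rich end and MRPL44 stands apart from the trend at 44.9%.

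The promoters of the genes were searched for 3 motifs. RefSeq gave a window of 250 bases before to 50 after the start for 66 of the 74 genes. The letters AANATGGCG, bound by YY1, were found on either strand in 17 of them (25.8%), against 3.37% of 27305 promoters and 6.56% of 10708 promoters of tested protein-coding genes. CCGGAAGT, bound by ETS factors such as GABPA, was in 10 (15.2%), against 4.44% of all promoters and 8.4% of those of tested protein-coding genes. The NRF1 motif was in 8 (12.1%), against 6.28% of all promoters and 11.1% of those of tested protein-coding genes, so it was about as frequent as in other expressed genes. Both GABPA and NRF1 are regulators of nuclear genes for mitochondrial proteins. A match is a description of letters and not a site in use.

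The YY1 letters and the start of translation share bases in many of these genes, since the motif contains ATGGCG, a start codon followed by an alanine codon. Of the 17 forward matches, 13 had their ATG at an annotated start codon, and 15 of 19 matches on either strand began at or after the RefSeq start. The windows below, from RefSeq (GRCh38.p14) on the strand of the gene, are those of the 6 genes with a match and the highest level per kilobase, with the motif in capitals. They are aligned on the motif by which they were chosen, and all but that of MRPL37 have their ATG at an annotated start codon. In order they lie at chr1:54200190-54200216, chr1:151763465-151763491, chr6:43687765-43687791, chr6:42217835-42217861, chr4:77862837-77862863 and chr2:105038081-105038107.
MRPL37: gcgcgcggcAACATGGCGgggtccagg
MRPL9: gtgcctgtgAACATGGCGgcgcccgtt
MRPS18A: aggtttttgAAGATGGCGgccctcaag
MRPS10: gggaccggcAAGATGGCGgcgcggaca
MRPL1: ggagtgcccAACATGGCGgcggccgta
MRPS9: cccacagctAACATGGCGgcgccctgt
None of the 17 genes with a YY1 match was called by limma, against 4.25% of all tested genes, and 17 genes are too few to show a difference from that share. Their log2 fold changes ran from -0.15 to 0.25. The median was -0.01 with a match and -0.02 without. Any of the 3 motifs was in 31 of the 66 windows (47.0%), against 12.7% of all promoters. MRPL54, MRPL41 and MRPL44 are among the many genes with none of them.

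Many of the genes stand head to head with a neighbour. A gene on the opposite strand starts within 1000 bases in 31 of the 74, and in 25 distinct pairs of a gene and a coding neighbour both were tested, counting MRPL46 and MRPS11, which neighbour each other, once. The sign of the fold change was shared in 12 of the 25. Taken as neighbours, 26 coding genes had a median log2 fold change of -0.03. The neighbours are named here after their values were seen. Of the 26 coding neighbours 1 was called, as lower, against 3.4% of all tested genes. It was SLC7A7 next to MRPL52, with 687 and 868 normalized reads in KD and 955 and 1022 in NT (log2 fold change -0.35, limma adjusted p = 0.0263). MRPL52 itself was at -0.02. The neighbours of MRPL54 (APBA3, log2 fold change -0.25, limma adjusted p = 0.128) and MRPL41 (PNPLA7, -0.18, adjusted p = 0.416) were lower in both KD libraries without passing. Over all tested genes 25.1% lay below NT in both KD libraries.

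Other genes of the mitochondrial ribosome and its assembly also moved little. By limma 1 of 5 further subunit genes was lower (20%), against 3.4% of all tested genes. This gene, AURKAIP1, encodes a small subunit protein and had 6069 and 5858 normalized reads in KD and 6871 and 6707 in NT. Its log2 fold change was -0.19 (SE 0.05, limma adjusted p = 0.0378). It lost the call in 10 of 16 alternatives and stood at -0.05 with the GC and length correction (adjusted p = 0.681, the highest; the lowest was 0.0125). Of 25 assembly factors in the table, all tested, 0 were lower and 0 higher by limma, with 0 at an unadjusted p under 0.05 and a median of 0.00. Over all tested genes 4.25% were called and 17.2% had an unadjusted p under 0.05. The largest changes were those of the ribosomal RNA methyltransferase MRM1 (-0.34, 95% interval -1.01 to 0.33) and the endoribonuclease YBEY (-0.17, 95% interval -0.47 to 0.14).

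The machinery that uses and feeds the ribosome gave a similar picture. Of 19 translation factors 0 were called by limma and 2 had an unadjusted p under 0.05, against 4.25% and 17.2% of all tested genes. Their median was 0.02. The elongation factor gene TSFM had 41.2 and 47.9 normalized reads in KD and 35.5 and 24.5 in NT (log2 fold change 0.58, 95% interval 0.00 to 1.15, adjusted p = 0.286). PDF, which removes the formyl group from new proteins, had 334 and 338 in KD and 394 and 433 in NT (-0.30, adjusted p = 0.110). Of 20 genes in the list of mitochondrial tRNA synthetases 0 were called by limma (0 at an unadjusted p under 0.05). The list also holds the amidotransferase subunits QRSL1, GATB and GATC. Its median was -0.01, with the largest changes in PARS2 (-0.13) and WARS2 (0.10). Of 19 genes for mitochondrial transcription and RNA processing, 1 was lower (5.26%), against 3.4% of all tested genes. It was PNPT1, a polynucleotide phosphorylase that degrades mitochondrial RNA and is also known as interferon-inducible. It had 6393 and 7013 in KD and 7785 and 8377 in NT (log2 fold change -0.27, SE 0.06, limma adjusted p = 0.00522), and it kept that call in 14 of 16 alternatives, not without NT library 2 (-0.22, adjusted p = 0.116, within a range of 1.38e-06 to 0.398).

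The 13 protein-coding genes of mitochondrial DNA, whose messenger RNAs mitochondrial ribosomes translate, had a positive median in KD. Their median log2 fold change was 0.12, and 10 of 13 were above NT in both KD libraries, against 21.6% of all tested genes. By limma 2 were higher (15.4%), against 0.851% of all tested genes. MT-CO3, a subunit of cytochrome c oxidase, had 28744 and 30660 normalized reads in KD and 26042 and 25333 in NT (log2 fold change 0.21, SE 0.05, adjusted p = 0.0154). MT-ND6, a subunit of complex I encoded on the opposite strand to the rest, had 7732 and 10332 in KD and 7547 and 6859 in NT (0.31, SE 0.08, adjusted p = 0.0299). Its KD libraries differed more from each other than KD library 1 did from NT, and without strand its reads cannot be told apart from those of the opposite strand. Together the 13 took 1.08% and 1.13% of reads in KD and 0.987% and 0.951% in NT. Over all alternatives the count of 2 ran from 0 to 7. It was 0 with the GC and length correction, 0 without KD library 2, 0 without NT library 2, 1 without NT library 1, 6 without KD library 1 and 7 when every library was given the same total.

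The proteins that join these products in the respiratory chain are encoded in the nucleus. Of 73 such genes tested 0 were lower and 1 was higher, ATP5MF, a membrane subunit of ATP synthase, with 1408 and 1362 normalized reads in KD and 1145 and 1134 in NT (log2 fold change 0.28, SE 0.07, limma adjusted p = 0.0176). The median was -0.01, and the share called was 1.37%, against 4.25% of all tested genes. Of 82 cytosolic ribosomal protein genes tested 0 were lower and 1 was higher, RPL11, whose protein also binds the p53 regulator MDM2, with 22167 and 22695 in KD and 19711 and 18879 in NT (log2 fold change 0.22, SE 0.05, limma adjusted p = 0.00930). The median of the 82 was -0.03, and the share called was 1.22%, again against 4.25%. ATP5MF lost its call without NT library 1 (adjusted p = 0.114, within a range of 0.00598 to 0.328) and RPL11 without NT library 1 (adjusted p = 0.0608, within a range of 0.00118 to 0.378), and both lost it without NT library 2.

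**Figure D5:**
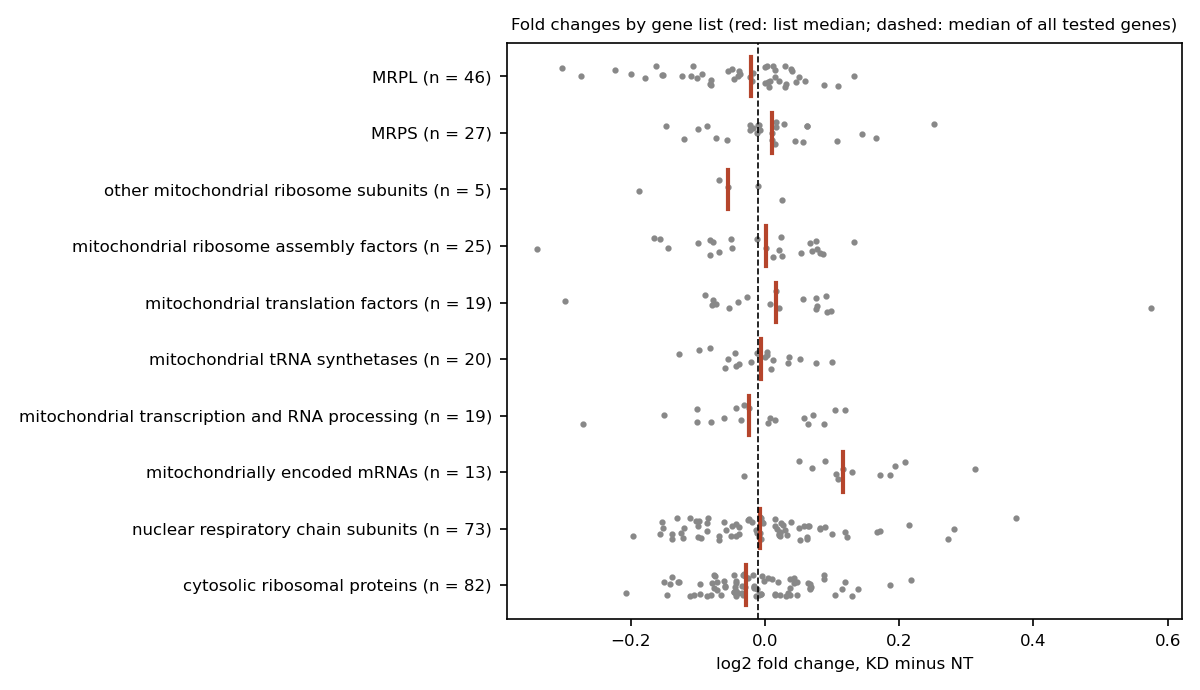
Log2 fold change (KD minus NT, x axis) of each tested gene in 10 lists (y axis, number tested in brackets), with the list median as a red bar and the median of all tested genes as a dashed line. The medians lie between -0.05 and 0.02 for 9 lists, and the 13 genes listed as mitochondrially encoded mRNAs have a median of 0.12.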

How the data were processed

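Per the labels' protocols, RNA of 4 THP-1 libraries was prepared with Qiagen RNeasy Plus Mini and NEBNext Ultra II. Per the submitters' processing notes, the tools were STAR 2.5.1b and DESeq2 and the build GRCh38, without a stated order. For the counting tool, annotation and strand setting nothing was given in the sources used here. In the table, the deposited signal is 1 normalized value per gene and library, reads that the authors divided by a size factor, as the values show: 100% of them were whole reads within 0.01 once divided by the library's step. Every gene has at least 2 reads in KD library 1, while 2375, 2132 and 2092 genes have fewer in KD library 2, NT library 1 and NT library 2, so the table was filtered on 1 library.

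Symbols matched 26579 of 27106 genes and GENCODE 29 on GRCh38 matched 26077. The test was limma 3.58.1 (R 4.3.3, empirical Bayes with trend, no covariate) on log2(value + 1) for the 19398 genes whose mean reached 10, which understates the change of low genes. Benjamini-Hochberg adjustment ran over all of them, at a threshold of 0.05. On the recovered reads edgeR 4.0.16 (quasi-likelihood) called 715 genes and DESeq2 1.42.0 called 445, against 825 by limma. GC content and exonic length were known for 97.6% of tested genes, and the correction removed a smooth fit of both from each library. Chi-square per degree of freedom was 5.47 for the KD pair, 4.92 for the NT pair and 9.52 to 13.3 for pairs across groups, so every library was kept as its own replicate.

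The members and lists were chosen with earlier results of these data known, so lists are described by counts and medians beside those of all genes. The genes named were those called, the 4 largest rises and 4 largest falls and the 3 highest and 3 lowest levels per kilobase in each subunit, genes of stated roles, and from each other list up to 3 called genes or else the 2 largest changes. Kinase and binding-protein genes that share the RPS letters, and a pseudogene, were dropped from the cytosolic list. Alternatives were 3 scalings, 2 filters, 2 pseudocounts, robust and untrended fits, the GC and length correction, edgeR, DESeq2, each library left out in turn, subunit by place in the ribosome, and genes without exon overlap. With 1 library left out, the fit takes the spread of its lone partner from the opposite group.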

Additional observations from a re-analysis of the deposited data

How the results depend on the processing

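The number of mitochondrial ribosomal protein genes called lower, 3, was 1 with quantile normalization, 1 with the same total in every library, 0 with no variance trend, 1 by DESeq2 and 0 to 4 with each library left out, 0 of them without NT library 2 and 1 without NT library 1. The number called higher, 0, was 1 with the GC and length correction. Over all genes 660 were lower, which became 334 with quantile normalization, 293 with the same total, 0 with no trend, 379 by DESeq2 and 334 to 960 with a library left out. The 165 higher genes became 290 with the same median in every library, 0 with no trend, 66 by DESeq2 and 87 to 309 with a library left out. The median log2 fold change of the large subunit genes, -0.02, was 0.0115 with quantile normalization and 0.0367 with the same total, and that of the small subunit genes, 0.01, was 0.0671 with the same total and -0.0243 to 0.0236 with a library left out. The median of all tested genes was 0.0472 with the same total, so that scaling raised all 3. The difference of the medians, -0.03, was 0.0041 without genes that overlap another gene and -0.0441 to -0.00174 with a library left out. The cause of these shifts was not tested. Of 31 named mitochondrial ribosomal protein genes, 26 were called under 0 of their settings, and none reversed a called direction. No paired analysis was possible because the KD columns are numbered otherwise than the labels and could not be tied to samples. The lowest genes, with under 100 reads in a library, are limited by depth, and 2 libraries a group limit every interval.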
